A study of Mus musculus with 6 samples.

Results

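The TIA proteins and other proteins that bind AU-rich elements were followed in immortalized mouse embryonic fibroblasts that lacked TIA1 or its relative TIAR. The genes were chosen by name: Tia1, Tial1 (which encodes TIAR), Elavl1, Zfp36, Zfp36l1, Zfp36l2, Hnrnpd and Khsrp, with every non-control probe that the array design assigns to one of them. This gave 8 of the 34797 gene names on the array, read by 13 of its 55681 probes, and each of the 13 probes was printed once. Total RNA of 3 genotypes was hybridized to 1-colour, Cy3-labelled mouse arrays, 2 arrays per genotype. The WT cells carry the background label W4, the TIA1 knockout (TIA1 KO) cells the label BALB/c, and the TIAR knockout (TIAR KO) cells the label C57BL/6. All cells were immortalized, and no treatment is named for any of them. Genotype, background and cell line therefore cannot be told apart. The methods describe the arrays of a genotype as independent experiments, while whether a genotype was represented by more than 1 cell line is not given in the sources used here, so p-values measure the spread between these arrays and not between lines. All 6 arrays lay on 1 slide, where the TIA1 KO arrays occupied a row apart from the others, so slide row and TIA1 KO cannot be told apart.

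The arrays were not equally clear. Between 23569 and 26295 probes were well above background (a mark set by the scanner software) on each WT and TIAR KO array, against 16021 and 19996 on the TIA1 KO arrays. Spot brightness, given as the array median, was 151.8 and 140.4 intensity units for WT, 136.2 and 119.5 for TIAR KO, and 458.1 and 217.6 for TIA1 KO. Negative-control spots were also brighter on the TIA1 KO arrays, with medians of 195.7 and 118.9 against 88.6 to 112.0 on the other 4 arrays. No spot was saturated on any array.

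AU-rich elements are stretches of A and U in the 3′ untranslated regions of many short-lived mRNAs, among them those of cytokines, growth factors and immediate early genes. Proteins that bind them act on the fate of the mRNA: TIA1 and TIAR repress translation and gather in stress granules, HuR (encoded by Elavl1) stabilizes its targets, and tristetraprolin (Zfp36) with its relatives Zfp36l1 and Zfp36l2 recruits deadenylases. AUF1 (Hnrnpd) and KSRP (Khsrp) also take part in mRNA decay, AUF1 through several isoforms. TIA1 and TIAR bind U-rich sequences, regulate alternative splicing in the nucleus, and act on each other's transcripts.

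The TIA genes were read by 5 probes of 60 bases each. The last 30 bases of each are given to identify the probe, and the coordinates after them give its place. The bases are written 5′ to 3′ as in the array design, and capitals mark AATAAA, the common polyadenylation signal.
Tia1 A_66_P116912: gacttaataagggctatccatgctactgag
Tia1 A_55_P2052370: tctaaagagatctgcaatgtgataagtcct
Tia1 A_55_P2052377: tcctgttaagtagagcatatatatggggta
Tial1 A_66_P127432: agtctcctgtcacactctgaagacatgaaa
Tial1 A_51_P441942: aaccacagttgaagtaagtctttcAATAAA
In the mm9 build named by the scanner files, the first Tia1 probe lies at chr6:86383073-86383132 and the second at chr6:86381136-86381195, both on the plus strand and both matched to the RefSeq transcripts NM_011585, NM_001164078 and NM_001164079. The third Tia1 probe lies at chr6:86375220-86375279, 7853 bases upstream of the first, and the array design matched it to the Ensembl transcripts ENSMUST00000152852 and ENSMUST00000113708 and to no RefSeq transcript. The Tial1 probes lie on the minus strand at chr7:135585977-135586036 and chr7:135583306-135583365, 2671 bases apart, and both were matched to NM_009383. The A_51_P441942 probe was the 1 probe of the 13 that held AATAAA on the probe strand, as did 10.1% of all probes. On either strand (AATAAA or TTTATT) it stood in 13.5% of all probes and in 2 of the 13. Which part of each gene was removed in the knockout cells is not given in the sources used here, so a probe may lie outside the deleted part.

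Tia1, the gene targeted in TIA1 KO cells, gave lower values there than in WT cells on the 2 probes matched to RefSeq transcripts, by 2.77-fold and 3.07-fold, but neither difference passed the test. On the A_66_P116912 probe the log2 intensity was 10.72 and 8.54 in WT, 7.87 and 8.44 in TIA1 KO, and 9.56 and 9.58 in TIAR KO. The WT arrays were 2.18 log2 units apart, so the lower WT array lay only just above the higher TIA1 KO array. The difference between TIA1 KO and WT was −1.47 ± 0.79 (SE, n = 2 per group), with limma's adjusted p of 0.288 and a 95% interval from −3.61 to 0.67. Without WT replicate 1 it was −0.38, and without WT replicate 2 it was −2.56. On the A_55_P2052370 probe the values were 9.56 and 9.90 in WT, 7.57 and 8.65 in TIA1 KO, and 9.98 and 8.63 in TIAR KO. Both TIA1 KO arrays lay below both WT arrays, the difference was −1.62 ± 0.42, and limma's adjusted p was 0.116, with an interval from −2.74 to −0.49. Without TIA1 KO replicate 2 the difference was −2.16, and without TIA1 KO replicate 1 it was −1.07. There, as in every fit with 1 array left out, the lone array was assumed to vary like the arrays of the other group, whose spread alone was measured. Both probes were well above background on 1 of the 2 TIA1 KO arrays.

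The third Tia1 probe, A_55_P2052377, went the other way. Its log2 intensity was 7.44 and 7.25 in WT, 7.45 and 7.45 in TIAR KO, and 7.88 and 8.54 in TIA1 KO. It was well above background on 1 array only, the second TIA1 KO array, and the difference between TIA1 KO and WT was 0.87 ± 0.28 with limma's adjusted p of 0.149. The local background beside this spot was 354.5 and 485.5 intensity units on the TIA1 KO arrays and 41 to 49 on the other 4 arrays, and the part of that background in the difference was not tested. The measured differences of the 3 Tia1 probes therefore did not share a direction in TIA1 KO cells, and none passed the test. That of the third probe rests on WT values not well above background on either array. Under scaling to a common array median the probes matched to RefSeq transcripts were −2.15 and −2.34 and both were called (limma's adjusted p = 0.000137 and 3.17e-05), in a fit that called 28.8% of all probes and where their median was −0.68.

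Tial1, the gene targeted in TIAR KO cells, fell there. On the A_51_P441942 probe the log2 intensity was 11.71 and 11.09 in WT, 11.85 and 11.49 in TIA1 KO, and 10.00 and 9.65 in TIAR KO. Both TIAR KO arrays lay below all 4 other arrays. The difference between TIAR KO and WT was −1.58 ± 0.26 (SE, n = 2 per group), a 2.99-fold fall, with limma's adjusted p of 0.0254 and an interval from −2.24 to −0.93. It was the 1 probe of the 13 called in this comparison, that is, with an adjusted p under 0.05 and a fold above 2, and 5.76% of all probes were called. The adjusted p was 0.0601 without WT replicate 1, 0.0762 without TIAR KO replicate 1, 0.123 without TIAR KO replicate 2 and 0.0210 without WT replicate 2. The call was also lost with the processed signal (adjusted p = 0.0714) and when a change above 2-fold was itself tested. The probe remained well above background on both TIAR KO arrays.

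The other Tial1 probe, A_66_P127432, was 6.21-fold lower in TIAR KO than in WT, on 3 arrays. Its log2 intensity was 13.22 on the second WT array, 14.07 and 13.69 in TIA1 KO, and 9.57 and 11.60 in TIAR KO. The spot of the first WT array was marked as non-uniform by the scanner software, with a pixel SD of 7715 around a mean of 15054 intensity units, and was left out. The TIAR KO arrays were 2.03 log2 units apart, and both lay below every other array. The difference between TIAR KO and WT was −2.63 ± 0.87, limma's adjusted p was 0.200 and the interval ran from −4.98 to −0.28. With the marked spot kept, the difference was −2.85 and the adjusted p 0.0723. It was −1.62 without TIAR KO replicate 1 and with the replicate block, and −3.65 without TIAR KO replicate 2, values with no test because no spread between arrays was then left.

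**Figure D1:**
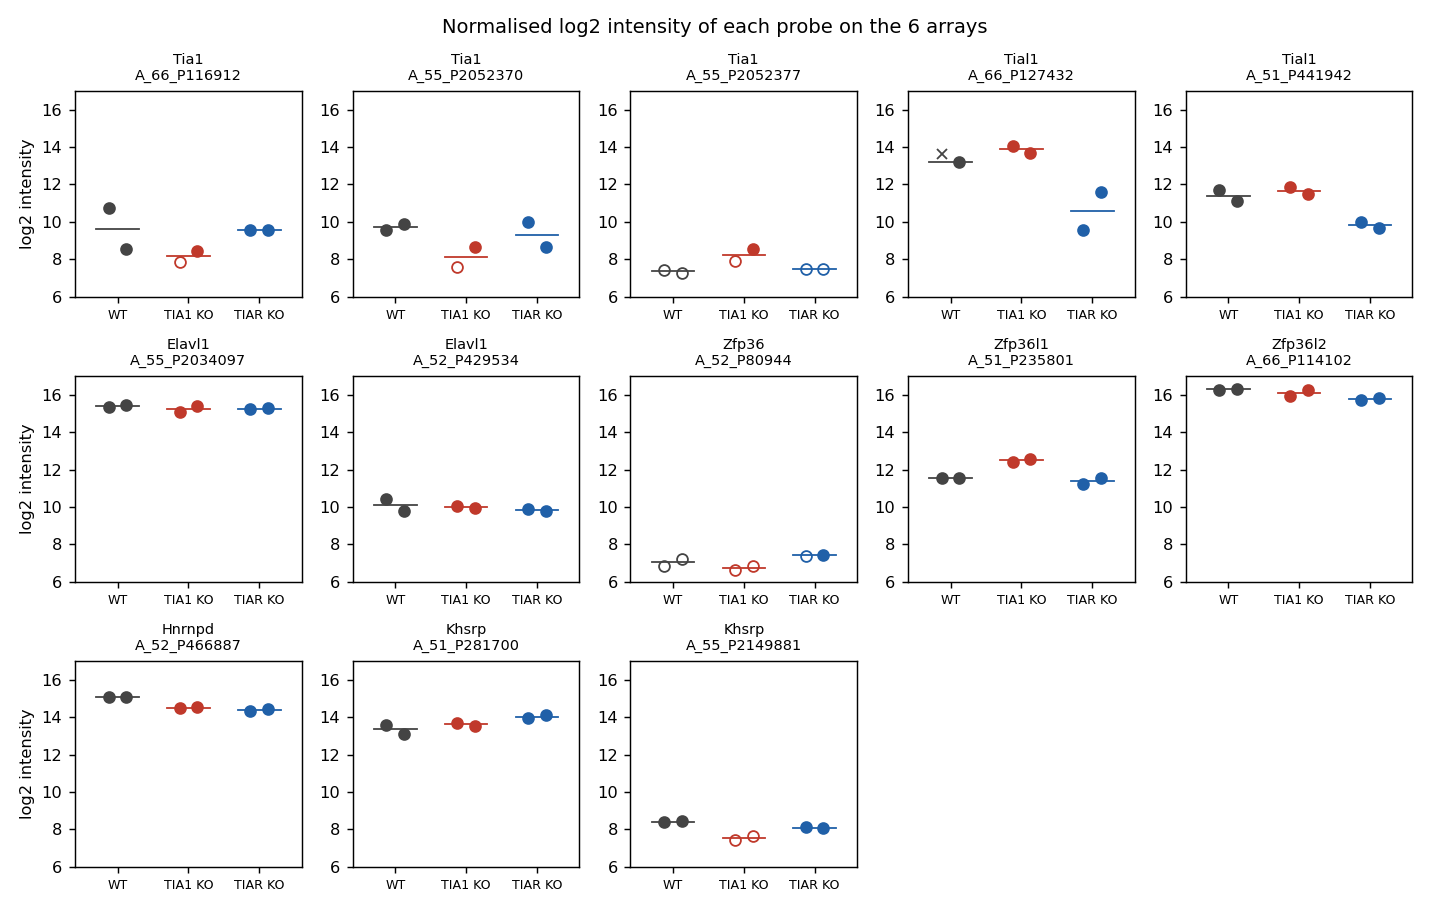
Normalised log2 intensity (y axis) of the 13 probes in WT (grey), TIA1 KO (red) and TIAR KO (blue) cells, 1 point per array, with the mean as a line. Filled points were well above background, open points were not, and the cross is the non-uniform Tial1 spot left out of the mean; both Tial1 probes are lowest in TIAR KO, with A_51_P441942 at 10.00 and 9.65.

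Each TIA gene was then read in the other knockout. Tial1 in TIA1 KO cells differed from WT by 0.27 ± 0.29 on A_51_P441942 (limma's adjusted p = 0.550, interval −0.51 to 1.04) and by 0.66 ± 0.27 on A_66_P127432 (adjusted p = 0.236, interval −0.18 to 1.50), so that the intervals reached a ratio of 2.06 and 2.82. Both values turned negative under scaling to a common array median, to −1.18 (called, adjusted p = 0.0492) and −0.97, where the median of all probes itself was −0.68. Tia1 in TIAR KO cells differed from WT by −0.06 ± 0.68 on A_66_P116912 and by −0.42 ± 0.45 on A_55_P2052370, with limma's adjusted p of 0.980 and 0.699. The intervals ran from −1.79 to 1.67 and from −1.56 to 0.71, and neither excluded a 2-fold change. Leaving out 1 array gave −1.15 to 1.03 on the first, called without WT replicate 2 (adjusted p = 0.0445), and −1.10 to 0.25 on the second.

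The knockouts were also compared with each other directly. Tial1 was lower in TIAR KO than in TIA1 KO, with a difference of −1.85 ± 0.23 on A_51_P441942 and limma's adjusted p of 0.0383. It was the 1 probe of the 13 called there, beside 3.35% of all probes. The adjusted p was 0.290 without TIAR KO replicate 1 and 0.329 without TIAR KO replicate 2, where no probe of the array was called. The call was lost under 9 of 16 alternatives, among them the replicate block (adjusted p = 0.0941), the authors' log2 table (0.0635) and the processed signal (0.0695). Under scaling to a common array median the difference was −0.79, where the median of all probes was 0.63. With the processed signal the difference lay near the median of all probes, which was −1.85 there. On A_66_P127432 the difference was −3.29 ± 0.72 (adjusted p = 0.110), and it was called under 4 of 16 alternatives. Tia1 differed by 1.41 ± 0.25 on A_66_P116912 (adjusted p = 0.0720, called under 4 of 16 alternatives), with both TIAR KO arrays above both TIA1 KO arrays, and by 1.19 ± 0.61 on A_55_P2052370 (adjusted p = 0.320), with overlapping arrays. The third Tia1 probe, A_55_P2052377, again went the other way, by −0.76 ± 0.27 (adjusted p = 0.210) and without overlap, and it was well above background on 1 of these 4 arrays.

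**Figure D2:**
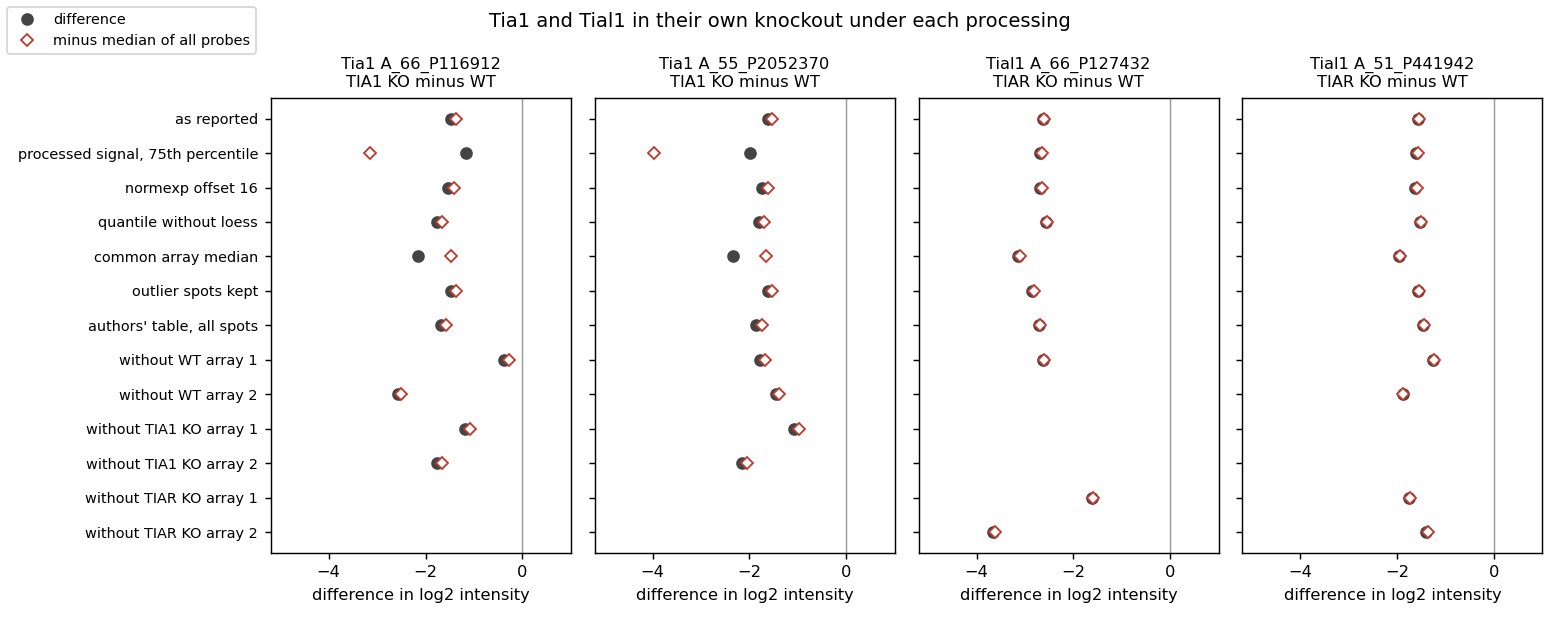
Difference in log2 intensity (x axis) of 2 Tia1 probes between TIA1 KO and WT and of both Tial1 probes between TIAR KO and WT, as reported and under 6 other processings or with 1 array left out (y axis); a row with no point had no value. Filled points are the difference and open diamonds the difference minus the median of all probes. Every value plotted is below 0, and Tia1 A_66_P116912 ranged most widely with the WT arrays, from −0.38 to −2.56. The third Tia1 probe, A_55_P2052377, is not plotted and went the other way, by 0.87 between TIA1 KO and WT.

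HuR, the stabilizing member of the group, was not called in either knockout. The Elavl1 probe A_55_P2034097 read 15.33 and 15.45 in WT, 15.09 and 15.37 in TIA1 KO, and 15.22 and 15.31 in TIAR KO. All 6 arrays lay within 0.36 log2 units. The differences from WT were −0.16 ± 0.18 in TIA1 KO and −0.13 ± 0.14 in TIAR KO, with limma's adjusted p of 0.574 and 0.718. Their intervals, −0.65 to 0.33 and −0.49 to 0.24, excluded a 2-fold change in either direction. The second Elavl1 probe, A_52_P429534, read 10.44 and 9.78 in WT, 10.03 and 9.97 in TIA1 KO, and 9.88 and 9.79 in TIAR KO. All 4 knockout values lay between the WT arrays, and the differences from WT were −0.11 ± 0.27 in TIA1 KO and −0.28 ± 0.25 in TIAR KO. Under scaling to a common array median the TIA1 KO differences were −1.74 and −1.36 and both were called (adjusted p = 0.00228 and 0.0203), where the median of all probes was −0.68.

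Within the tristetraprolin family, Zfp36l1 gave the largest difference in TIA1 KO and the smallest in TIAR KO. Its probe A_51_P235801 read 11.53 and 11.54 in WT, 12.41 and 12.56 in TIA1 KO, and 11.23 and 11.56 in TIAR KO. Both TIA1 KO arrays lay above all 4 other arrays. The difference between TIA1 KO and WT was 0.95 ± 0.16, a ratio of 1.93 with an interval from 1.44 to 2.59, and limma's adjusted p was 0.0630. Between TIAR KO and TIA1 KO it was −1.09 ± 0.19 with an adjusted p of 0.0750, and it was called under 4 of 16 alternatives. Neither passed the test, and with a common array median the first was −0.58 and the second 0.01, which relative to the median of all probes are 0.10 and −0.62, with the signs as before. The local background beside this spot was 419.5 and 307 intensity units on the TIA1 KO arrays, under spot means of 5556 and 6456, and 45 to 49 on the other 4 arrays. Zfp36l1 in TIAR KO differed from WT by −0.14 ± 0.17, with an interval from −0.58 to 0.29.

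Zfp36l2, read by A_66_P114102, gave 16.28 and 16.30 in WT, 15.91 and 16.24 in TIA1 KO, and 15.70 and 15.83 in TIAR KO. Both TIAR KO arrays lay below the other 4. The difference from WT was −0.53 ± 0.14 in TIAR KO (limma's adjusted p = 0.107) and −0.22 ± 0.19 in TIA1 KO (adjusted p = 0.468). Under scaling to a common array median it was −0.96 in TIAR KO and −1.76 in TIA1 KO, where it was called (adjusted p = 0.00207).

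Tristetraprolin itself was near background. Its probe A_52_P80944 lies at chr7:29161940-29161999 on the minus strand, and its first 30 bases are shown because the tristetraprolin mRNA carries the kind of element that its protein binds; capitals mark TTATTTATT, the DNA form of the nonamer that the family prefers.
Zfp36 A_52_P80944: ttatgacgactTTATTTATTgtattaagat
The nonamer stood in 0.144% of all probes on the probe strand and in 0.388% on either strand (TTATTTATT or AATAAATAA), and in 1 of the 13. The shorter pentamer ATTTA, which the nonamer contains, stood in 7.71% of all probes on the probe strand, in 16.3% on either strand (ATTTA or TAAAT), and in 2 of the 13, the Zfp36 probe and Khsrp A_51_P281700. The Zfp36 log2 intensity was 6.85 and 7.20 in WT, 6.64 and 6.82 in TIA1 KO, and 7.39 and 7.42 in TIAR KO. It was well above background on the second TIAR KO array only. The measured means gave a TIAR KO level at least 1.16-fold higher than WT, a bound without error that sets WT, not above background on either array, at its measured value or the lowest signal above background, whichever was higher, and limma's adjusted p was 0.322. The interval of the difference, −0.06 to 0.83, included no change. With the processed signal the probe was called (adjusted p = 0.0472), on the same spots not above background in WT.

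The decay factors AUF1 and KSRP gave no called difference from WT. Hnrnpd, read by A_52_P466887, was 15.11 and 15.07 in WT, 14.49 and 14.55 in TIA1 KO, and 14.31 and 14.46 in TIAR KO. Every array of either knockout lay below both WT arrays. The difference from WT was −0.71 ± 0.14 in TIAR KO, a 1.63-fold difference, with limma's adjusted p of 0.05003 and an interval from −1.07 to −0.34. In TIA1 KO it was −0.57 ± 0.15 (adjusted p = 0.117, interval −0.97 to −0.17). Under scaling to a common array median Hnrnpd was −2.17 in TIA1 KO and −1.16 in TIAR KO and was called in both (adjusted p = 0.000122 and 0.00860), where the median of all probes was −0.68 and −0.03. Both comparisons share the WT arrays. The knockouts differed from each other by −0.14 ± 0.16, with an interval from −0.56 to 0.29.

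The Khsrp probes disagreed. A_51_P281700 read 13.60 and 13.13 in WT, 13.71 and 13.52 in TIA1 KO, and 13.96 and 14.12 in TIAR KO, so that TIAR KO lay above WT by 0.67 ± 0.20 (limma's adjusted p = 0.139). A_55_P2149881, which lies 1308 bases upstream and was matched to the same RefSeq transcript, NM_010613, read 8.39 and 8.44 in WT, 7.43 and 7.63 in TIA1 KO, and 8.13 and 8.07 in TIAR KO. TIA1 KO differed from WT by −0.88 ± 0.16 on this probe (adjusted p = 0.0767), where it was not well above background on either array. The bound on this fall was 1.50-fold and is approximate, since the second TIA1 KO array entered it at its measured value. On A_51_P281700 the TIA1 KO difference was 0.25 ± 0.23, with an interval from −0.36 to 0.87, and under scaling to a common array median it turned to −1.35 and was called (adjusted p = 0.0218; −0.66 relative to the median of all probes).

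Over the 13 probes, 0 were called between TIA1 KO and WT by limma, with 5 at an unadjusted p under 0.05 (15484 of all 55680 probes tested), beside 3.54% of all probes called (2.18% higher and 1.36% lower). Between TIAR KO and WT 1 was called, beside 3.39% of all probes higher and 2.37% lower, and 5 had an unadjusted p under 0.05 (11247 of 55678), and between the knockouts 1 was called, beside 1.72% higher and 1.63% lower, and 7 did (12599 of 55681). The groups did not overlap for 9 of 13 probes in either comparison with WT and for 11 between the knockouts, beside 65.3%, 49% and 60% of all probes. The median difference of the 13 was −0.16 in TIA1 KO and −0.28 in TIAR KO, beside −0.09 and −0.02 over all probes. The count of called probes was 1 without TIA1 KO replicate 2 in the first comparison, where 19.3% of all probes were called. In the second it was 0 without WT replicate 1, 0 without TIAR KO replicate 1 or 2, and 2 without WT replicate 2, in fits that called 4.16% to 5.01% of all probes. In the third it was 3 without TIA1 KO replicate 1, 4 without TIA1 KO replicate 2 (6.12% and 18.1% of all probes), and 0 without either TIAR KO array. Under scaling to a common array median 8 of the 13 were called between TIA1 KO and WT, beside 28.8% of all probes. Of the 13 probes 8 were well above background on all 6 arrays; the other 5 were the Tia1 probes, the Zfp36 probe and Khsrp A_55_P2149881.

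**Figure D3:**
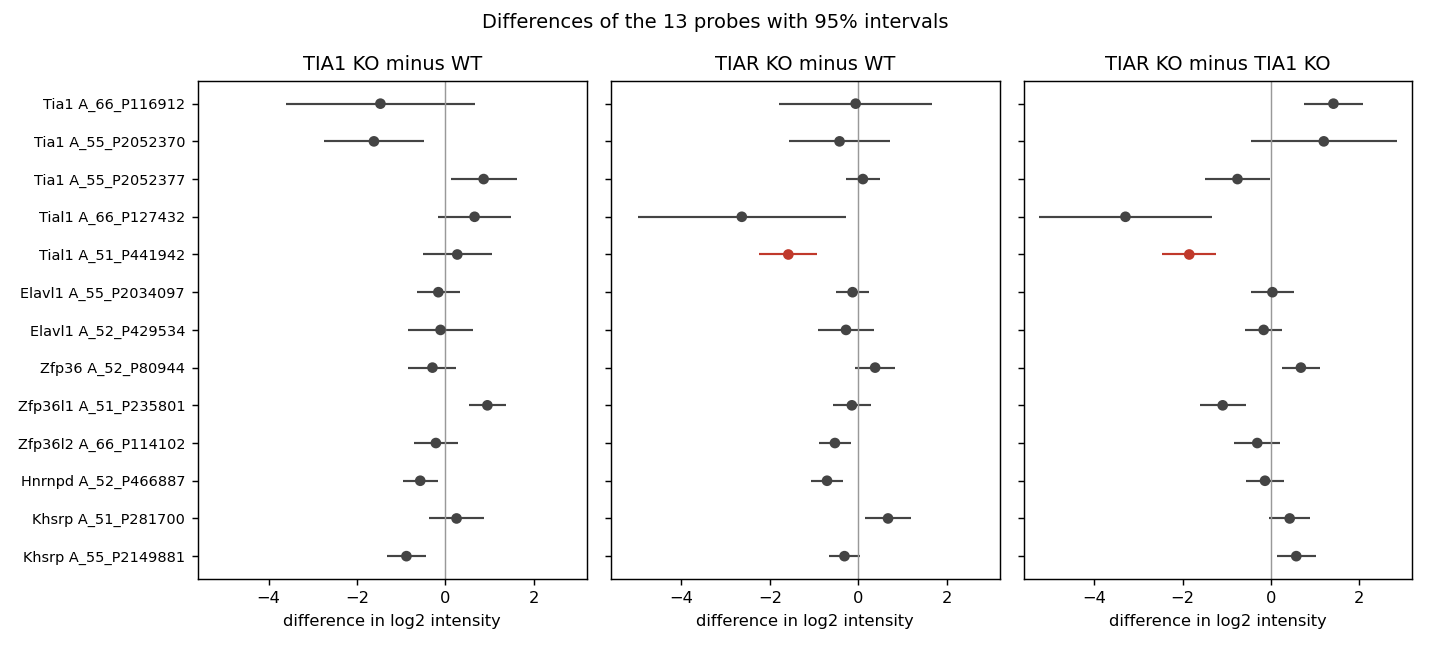
Difference in log2 intensity (x axis) of the 13 probes in the 3 comparisons, with limma's 95% intervals as lines; red marks a probe with an adjusted p under 0.05 and a fold above 2. Only Tial1 A_51_P441942 is red, at −1.58 between TIAR KO and WT and at −1.85 between the knockouts.

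Genes that these proteins act on or with were read from 4 lists, each gene by its brightest probe. The first held 50 mRNAs known for AU-rich elements, all of them measured. In TIA1 KO cells 4 rose and 3 fell against WT, and in TIAR KO cells 4 rose and 10 fell, beside 4.51% and 7.18% of all genes called by their brightest probe. Of all genes 2.88% rose and 1.63% fell in TIA1 KO, and 4.36% rose and 2.83% fell in TIAR KO. The list's median difference was 0.04 in TIA1 KO and −0.16 in TIAR KO, and that of all genes −0.07 and −0.01. Between the knockouts 5 of the 50 were higher in TIAR KO and 8 lower, beside 4.18% of all genes (2.06% higher and 2.12% lower). With the replicate block no probe of the array was called between the knockouts, so these calls were lost there. Between TIA1 KO and WT, 11 of the 50 were called without TIA1 KO replicate 2, beside 19.3% of all probes, and none without WT replicate 1 or without WT replicate 2, where no probe of the array was called. Between the knockouts none was called without either TIAR KO array.

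In TIA1 KO cells Ccl2, which encodes a monocyte chemoattractant, fell from 17.66 and 17.72 in WT to 14.38 and 14.43, a difference of −3.29 ± 0.15 (limma's adjusted p = 0.00557). Plau, the urokinase plasminogen activator, rose from 8.15 and 8.08 to 11.05 and 11.35, by 3.09 ± 0.18 (adjusted p = 0.00840). Ptgs2, the inducible cyclooxygenase and a known TIA1 target, rose from 10.83 and 11.27 to 13.29 and 13.74, by 2.47 ± 0.26 (adjusted p = 0.0279). Dusp1, a phosphatase of p38 and other MAP kinases, rose from 10.62 and 10.74 to 12.63 and 12.80, by 2.04 ± 0.16 (adjusted p = 0.0163). For none of these 4 genes did any TIA1 KO array overlap with a WT array, and under none of the 16 alternatives did the sign of the difference turn. Over those alternatives the difference ran from −4.84 to −3.26 for Ccl2 and from 2.09 to 3.88 for Plau. It ran from 1.01 to 2.69 for Ptgs2 and from 0.57 to 2.13 for Dusp1. All 4 calls were lost without either WT array and with the processed signal, and those of Ptgs2 and Dusp1 also under scaling to a common array median and when a change above 2-fold was itself tested.

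In TIAR KO cells Egr1, an immediate early transcription factor, fell from 12.37 and 12.28 in WT to 8.55 and 8.74, a difference of −3.68 ± 0.15 (limma's adjusted p = 0.000372). Cxcl5, a neutrophil-attracting chemokine, fell from 11.47 and 11.41 to 8.07 and 8.22, a difference of −3.30 ± 0.15 (adjusted p = 0.000451). Ccl7, another monocyte-attracting chemokine, rose from 12.35 and 12.41 to 15.14 and 15.21, by 2.79 ± 0.14 (adjusted p = 0.000636). Mmp13, a collagenase, read 10.25 and 10.21 in TIAR KO against 7.09 and 6.70 in WT, where it was not well above background, and was at least 9.75-fold higher (adjusted p = 0.000786). These 4 calls held under all 16 alternatives. Ptgs2 went opposite ways in the knockouts: it fell to 9.13 and 9.18 in TIAR KO, a difference of −1.90 ± 0.19 (adjusted p = 0.00538), and TIAR KO differed from TIA1 KO by −4.36 ± 0.21 (adjusted p = 0.00809). The call between the knockouts was lost with the replicate block, where no probe of the array was called in that comparison.

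**Figure D4:**
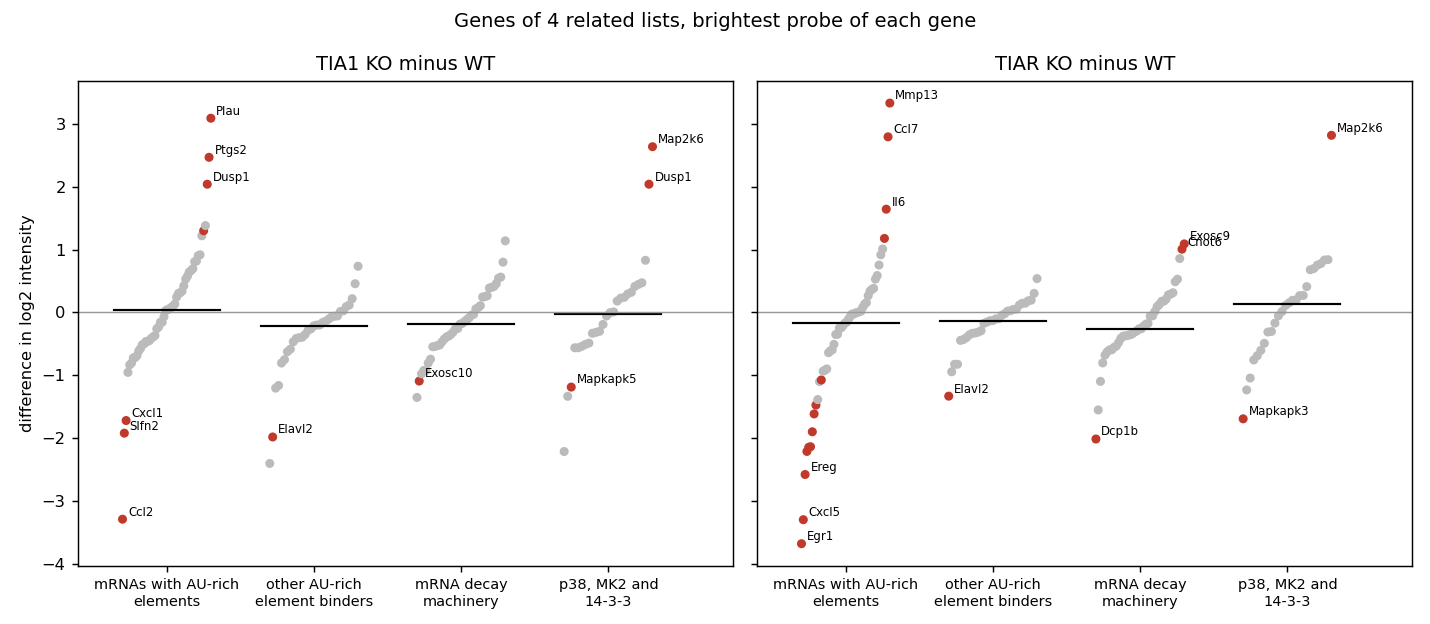
Difference in log2 intensity (y axis) between each knockout and WT for the genes of 4 lists (x axis), 1 point per gene ordered by its difference within the list, red where called by limma (adjusted p under 0.05, fold above 2) and grey otherwise; lines are list medians and names mark called genes at the ends. The mRNAs with AU-rich elements spread from −3.68 to 3.33 in TIAR KO.

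The other AU-rich element binders, 31 genes measured of 34 symbols listed, included 1 called gene in each knockout, beside 4.51% of all genes in TIA1 KO and 7.18% in TIAR KO. Elavl2, a neuronal HuR relative, read 8.65 and 8.16 in WT, 6.30 and 6.55 in TIA1 KO, and 7.14 and 7.01 in TIAR KO. It was not well above background in either knockout. The bound on its fall was 2.17-fold in TIA1 KO and 2.35-fold in TIAR KO, with limma's adjusted p of 0.0371 and 0.0221. The lowest signal above background was 5.78 on the second TIA1 KO array and 6.65 on the first TIAR KO array. On those arrays Elavl2 entered the bound at its measured value, so the bound is approximate. The TIA1 KO call was lost under 5 of 16 alternatives, among them the replicate block and leaving out either WT array. The TIAR KO call was lost under 4, among them leaving out WT replicate 1 or either TIAR KO array. The median difference of the 31 was −0.21 in TIA1 KO and −0.13 in TIAR KO.

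The mRNA decay machinery, 40 genes measured of 42 symbols listed, included 1 called gene in TIA1 KO and 3 in TIAR KO, beside the same 4.51% and 7.18% of all genes. Exosc10, a nuclear exosome nuclease, fell from 12.76 and 12.77 in WT to 11.69 and 11.66 in TIA1 KO, a difference of −1.09 ± 0.15 (limma's adjusted p = 0.0441). This call was lost under 9 of 16 alternatives, among them the replicate block, the authors' log2 table and leaving out either WT array. In TIAR KO the decapping cofactor Dcp1b fell by 2.01 ± 0.24 (adjusted p = 0.00924), while the exosome subunit Exosc9 rose by 1.09 ± 0.18 (adjusted p = 0.0247) and the CCR4-NOT deadenylase Cnot6 by 1.01 ± 0.14 (adjusted p = 0.0144). Exosc9 differed by as much in TIA1 KO, 1.14 ± 0.19, where it missed the threshold (adjusted p = 0.0658). The calls of Dcp1b, Exosc9 and Cnot6 were lost under 3, 6 and 8 of 16 alternatives, in each case among them leaving out either TIAR KO array, and none of the 40 was called without TIAR KO replicate 2.

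The p38 and MK2 kinases, their regulators and the 14-3-3 proteins, which act on tristetraprolin and KSRP after phosphorylation, made a list of 26 measured genes. In TIA1 KO 2 rose and 1 fell, and in TIAR KO 1 rose and 1 fell, beside 4.51% and 7.18% of all genes called. Map2k6, a kinase that activates p38, rose in both, from 8.32 and 8.79 in WT to 11.01 and 11.37 in TIA1 KO and to 11.49 and 11.25 in TIAR KO, by 2.64 ± 0.25 and 2.82 ± 0.21 (limma's adjusted p = 0.0226 and 0.00206). Both comparisons share the WT arrays. Of the kinases that p38 activates, Mapkapk5 fell by 1.19 ± 0.15 in TIA1 KO (adjusted p = 0.0393), and Mapkapk3 fell by 1.69 ± 0.14 in TIAR KO (adjusted p = 0.00307). In TIA1 KO the call of Mapkapk5 was lost under 8 of 16 alternatives, among them the replicate block and the authors' log2 table, and that of Map2k6 under 4, among them leaving out either WT array. In TIAR KO the call of Map2k6 was lost under 0 and that of Mapkapk3 under 1.

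As a check on level, 6 genes often used as controls (Gapdh, Actb, Hprt, Tbp, Ppia and Rplp0) were not called by limma in any of the 3 comparisons. At an unadjusted p under 0.05 stood 0 of them between TIA1 KO and WT, 2 between TIAR KO and WT, and 1 between the knockouts. Their differences ran from −0.35 to 0.07 in TIA1 KO and from −0.69 to 0.19 in TIAR KO. The lowest of these, beside −0.71 for Hnrnpd in TIAR KO, were Tbp in TIA1 KO and Rplp0 in TIAR KO.

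Markers of cell type differed between the lines. Of 13 fibroblast markers 9 were well above background on both WT arrays, 10 on both TIA1 KO arrays and 12 on both TIAR KO arrays. In WT cells Pdgfra and Lum were not well above background on either array, Dcn and Thy1 were on 1 array each, and Col3a1 read 9.52 and 9.08. Not all of this was particular to WT: Lum was above background on no array, Thy1 on neither TIA1 KO array and Dcn on 1 TIA1 KO array. Pdgfra and Col3a1 were above background on both arrays of each knockout. Against WT, 8 of the 13 were called higher in TIA1 KO and 9 in TIAR KO, beside 2.88% and 4.36% of all genes, with none lower. The summed linear level of the list was 540543 and 573148 in WT, 1348826 and 1323850 in TIA1 KO, and 1418353 and 1446183 in TIAR KO. S100a4 was the brightest in the mean of the 6 arrays, but not in TIA1 KO, where Col1a2 and Fn1 were brighter. The 5 smooth muscle markers, with Acta2 the brightest in both knockouts and Tagln in WT, summed to 15847 and 20349 in WT, 267359 and 296033 in TIA1 KO, and 476828 and 422547 in TIAR KO, with Myh11 above background on no array.

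Macrophage markers, 7 measured, summed to 11126 and 10458 in WT, 21256 and 18744 in TIA1 KO, and 9925 and 9853 in TIAR KO. Itgam was the brightest in both knockouts but not in WT. Cd14, Cd68 and Itgam were well above background on every array, Csf1r on all but 1 TIA1 KO array, and Ptprc, Emr1 and Lyz2 on none. Against WT, Itgam was called higher in TIA1 KO, with a difference of 1.82 (limma's adjusted p = 0.0415). Cd14 was called lower in TIAR KO, with a difference of −1.32 (adjusted p = 0.0136). The 8 epithelial markers summed to 5797 and 6017 in WT, 10922 and 11562 in TIA1 KO, and 8931 and 8244 in TIAR KO, led by Krt19. Against WT, 2 of them were called higher in TIA1 KO and 3 in TIAR KO, beside 2.88% and 4.36% of all genes, with none lower. In TIA1 KO these were Krt8, by 1.23, and Krt19, by 1.05. In TIAR KO they were Krt18, by 2.72, Krt8, by 1.23, and Cdh1, at least 2.53-fold and not well above background in WT. Krt19 differed by 0.34 in TIAR KO and was not called. The 6 endothelial markers stood between 3009 and 3953 on every array, led by Kdr, which was well above background on all of them. Pecam1 was well above background on both WT and both TIAR KO arrays, Tek on 1 TIAR KO array, and Cdh5, Emcn and Tie1 on none. No endothelial marker was called in either knockout. The 5 adipocyte markers summed to 1862 and 2208 in WT, 6865 and 7751 in TIA1 KO and 4102 and 4268 in TIAR KO, and Adipoq and Lep were above background on no array. Fabp4 was the brightest of them in WT and TIAR KO, and Pparg in TIA1 KO. Pparg was called in both knockouts, with a difference from WT of 4.13 in the TIA1 KO and 2.12 in the TIAR KO cells (limma's adjusted p = 0.00485 and 0.00272). The 4 neural markers measured stood between 658 and 983 on every array, led by Tubb3. The part of these differences between lines in any value above was not tested, and a bulk array cannot tell fewer cells of a type from less RNA per cell.

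The genes whose pattern over the 6 arrays was most like that of Tia1 or Tial1 were found by the mean absolute difference of log2 values centred on each probe's mean. For Tia1, read by A_66_P116912, they were Izumo4 (0.226), Plxna3 (0.230) and Ep300 (0.231), where the median over the 16738 probes considered was 0.814. Ep300 read 10.97 and 9.52 in WT, 8.19 and 8.70 in TIA1 KO, and 9.30 and 9.85 in TIAR KO. Izumo4 read 9.16 and 8.25 in WT and Plxna3 9.88 and 8.80, so all of them were higher on the first WT array, as was A_66_P116912 (10.72 and 8.54). The likeness therefore includes this gap between the WT arrays and is not a pattern of genotype alone. For Tial1, read by A_51_P441942 because the brighter probe lacked 1 array, they included Morn4 (0.147) and Eea1 (0.151), where the median over 16739 probes was 0.858. Eea1 read 11.91 and 11.28 in WT, 11.68 and 11.34 in TIA1 KO, and 10.06 and 9.89 in TIAR KO. These are descriptions over 6 arrays, with no test.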

How the data were processed

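Total RNA from WT, TIA1 KO and TIAR KO cells was measured on 6 Agilent 1-colour arrays. The authors deposited unnormalized spot intensities (Feature Extraction 10.7.3.1, per the file headers) and a log2 table that the methods describe as background-corrected by normexp with an offset of 50, loess-normalized and quantile-scaled; limma is named in the submitters' processing notes. The deposited intensities were the starting point here (R 4.3.3, limma 3.58.1): normexp on spot mean and local background with an offset of 50, log2, fast cyclic loess, quantile scaling, and removal of control spots and of spots marked as non-uniform or population outliers (176 to 291 per array). The resulting values correlated with the deposited log2 table at 0.997 to 0.999, and that table was an alternative. The 4 arrays of each comparison were fitted with limma (lmFit, eBayes), with Benjamini-Hochberg adjustment over all probes with a spread between arrays (55678 to 55681), and a probe was called at an adjusted p under 0.05 and a fold above 2. SE is the moderated standard error and intervals are 95% moderated intervals. The number of arrays limits the precision. The fit was tested on simulated data with independent errors from the variance model that limma assumes. Those data held no array or background effects, so the test cannot show how such effects move the calls. Bounds ("at least N-fold") compare the bright group's mean with the dim group's mean of, per array, the higher of its own value and the lowest log2 value among probes well above background. That lowest value ran from 5.78 to 8.03 over the arrays, and spots not above background could read higher, so the bounds are approximate.

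The 8 genes, the lists and the tests were chosen with earlier results of these data known. Named from each list were the 4 called genes with the largest difference in each knockout, provided that both arrays of the brighter group stood well above background; each gene was read from its brightest probe, and levels were not compared between probes outside the marker lists, whose sums and brightest probes depend on probe response. A control gene and a gene with a pattern like that of Tial1 are not reported here. Alternatives changed the background offset, scaling, filter, variance model, outlier spots, replicate block and arrays used. The fit had no replicate block. Probe sequences and mm9 coordinates came from the scanner files, and motifs were counted over all non-control probes (Python 3.11.15).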

Additional observations from a re-analysis of the deposited data

How the results depend on the processing

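Of the differences of the 13 probes under the alternatives, 190 of 205 between TIA1 KO and WT, 190 of 205 between TIAR KO and WT and 171 of 206 between the knockouts kept their direction and their side of the thresholds (a value with no spread left counts as not called), and the cause of the exceptions was not tested. The number of arrays, 2 per group, and the lower number of probes above background on the TIA1 KO arrays limit the precision. The Tial1 probe A_66_P127432 has no value against WT without WT replicate 2.

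The number of probes called between TIA1 KO and WT, 1969 (61.6% higher), was 0 with the processed signal scaled to its 75th percentile, 16041 (11.6% higher) with a common array median, 3986 (47.2% higher) with all 3 groups fitted together, 440 with a test against a 2-fold change, 674 with the replicate block, 1309 in the authors' log2 table and 1293 there with outlier spots kept, an alternative chosen after seeing the data. It was 0 to 10726 leaving out 1 array, and member probes called were 0 to 1. Members called were 8 with the common median. Between TIAR KO and WT, 3206 probes (58.8% higher) became 1016 with the test against a 2-fold change, and 33.6% of calls were higher with the common median. Member probes called were 2 with the common median, 0 with the test against a 2-fold change and 0 to 2 leaving out 1 array. Between the knockouts, 1866 probes (51.3% higher) became 8416 (87.1% higher) with the common median, 2925 (61.6% higher) with probes well above background only, 3183 with all groups together, 409 with the test against a 2-fold change, 0 with the replicate block and 0 to 10069 leaving out 1 array; the processed signal gave 8.28% higher. Member probes called there were 0 with the processed signal, with quantile scaling without loess, with the test against a 2-fold change, with the replicate block and in the authors' table with or without outlier spots, 4 with the common median and with bright probes only, 2 with all groups together, 3 with an intensity trend, and 0 to 4 leaving out 1 array. Deviations of same-numbered arrays correlated at 0.28 between WT and TIA1 KO but at 0.02 and −0.07 in the other pairs of groups (13729 probes), so the numbers were not taken to pair the arrays. The replicate block lost the call of Tial1 A_51_P441942 between the knockouts (limma's adjusted p = 0.0941) and changed no other call of the 13 probes.

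The median of all probes moved with the scaling, between TIA1 KO and WT from −0.09 to −0.68 with the common median and 1.98 with the processed signal, and between the knockouts from 0.05 to 0.63 and −1.85. Relative to it, Tial1 A_51_P441942 between the knockouts was −1.42 with the common median and 0.03 with the processed signal. Signs turned as follows. Between TIA1 KO and WT, the processed signal gave 0.054 for Elavl1 A_52_P429534 and 1.84 for Zfp36, which are −1.93 and −0.15 relative to all probes, and the common median gave −0.97 and −1.18 for Tial1 A_66_P127432 and A_51_P441942, −0.58 for Zfp36l1 and −1.35 for Khsrp A_51_P281700. Leaving out 1 array gave −0.44 to 0.22 for Elavl1 A_52_P429534 and −0.041 to 0.58 for Tial1 A_51_P441942. Between TIAR KO and WT, Tia1 A_66_P116912 was 0.28 with the processed signal and 0.12 in the authors' table with or without outlier spots. Leaving out 1 array gave −1.15 to 1.03 for it, −1.10 to 0.25 for Tia1 A_55_P2052370, −0.61 to 0.053 for Elavl1 A_52_P429534 and −0.31 to 0.021 for Zfp36l1. Between the knockouts, the processed signal gave −0.12 for Zfp36 and 0.069 for Hnrnpd. Elavl1 A_52_P429534 was 0.015 with quantile scaling without loess, 0.06 in the authors' table with or without outlier spots, and 0.78 with the common median, which also gave 0.0080 for Zfp36l1, 0.79 for Zfp36l2 and 1.00 for Hnrnpd. Leaving out 1 array gave −0.11 to 0.17 for Elavl1 A_55_P2034097.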
